A study of Homo sapiens with 13 samples.

Results

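The 38 genes described here encode the machinery of autophagy, the transcription factors that act on it and 5 proteins of the lysosome. They were taken by symbol: a row of the expression table counted when the platform annotation gave it a listed symbol alone, and where 2 rows did, as for ATG2B and ATG4B, the row with the higher mean over the 13 arrays was used. All 38 had a row, among 18377 genes with a row of their own. RNA was measured on Affymetrix whole-transcript arrays. The cells were HepG2, an established line from a human liver tumour, and HepG2S1, cells that the series title describes as HepG2 after long exposure to sorafenib, a kinase inhibitor given for liver cancer. There were 4 groups of flasks, each harvested after 72 h: HepG2 without drug at 20% O2 (n = 3), HepG2S1 with 6 µM sorafenib at 20% O2 (n = 4), HepG2S1 withdrawn from sorafenib at 20% O2 (n = 3) and HepG2S1 with 6 µM sorafenib at 2% O2 (n = 3). They are called below HepG2, the drug group, the withdrawn group and the low-oxygen group. Serum, glutamine, insulin and dexamethasone were in the medium, per the labels' protocols. Whether the flasks of a group came from separate cultures, and whether HepG2S1 is 1 clone, is not given; a p-value here sets differences against the spread from flask to flask.

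Macroautophagy encloses cytoplasm in a double membrane and delivers it to the lysosome. A kinase complex around ULK1 starts it, a lipid kinase complex with Beclin 1 marks the site, WIPI and ATG2 proteins and ATG9A feed lipid to the growing membrane, and a pair of ubiquitin-like systems couple ATG8 proteins such as LC3 to that membrane, where cargo receptors bind. The factors TFEB, TFE3 and MITF drive genes of lysosomes and autophagy when the kinase complex MTORC1 is inactive. mRNA levels of these genes do not measure autophagic flux, which is set largely by phosphorylation, lipidation and turnover of the proteins.

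Promoters of 4 members are printed here, since TFEB, TFE3 and MITF bind E-box letters and the results below turn on members that moved when sorafenib was taken away. WIPI1 and CTSD fell at withdrawal, while LAMP1 and ATG14 passed no test there. Each stretch is the 250 bases before and the 30 after the start in RefSeq (GRCh38.p14), and capitals mark the E-box CACGTG, its extension TCACGTG and the palindrome TCACGTGA on either strand, motifs that overlap one another. WIPI1 lies at chr17:68457467-68457746 (minus strand), CTSD at chr11:1763898-1764177 (minus), LAMP1 at chr13:113296989-113297268 (plus) and ATG14 at chr14:55411801-55412080 (minus).
WIPI1: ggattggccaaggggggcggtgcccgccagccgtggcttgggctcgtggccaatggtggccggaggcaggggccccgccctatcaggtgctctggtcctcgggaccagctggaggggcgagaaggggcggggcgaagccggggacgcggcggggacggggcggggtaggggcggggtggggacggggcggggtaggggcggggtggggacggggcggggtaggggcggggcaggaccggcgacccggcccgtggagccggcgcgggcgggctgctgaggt
CTSD: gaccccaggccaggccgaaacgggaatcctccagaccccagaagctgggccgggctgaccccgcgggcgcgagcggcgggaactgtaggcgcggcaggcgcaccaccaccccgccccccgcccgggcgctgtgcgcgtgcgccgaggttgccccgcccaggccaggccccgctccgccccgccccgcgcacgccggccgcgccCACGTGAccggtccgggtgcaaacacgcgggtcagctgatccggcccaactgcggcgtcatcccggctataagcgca
LAMP1: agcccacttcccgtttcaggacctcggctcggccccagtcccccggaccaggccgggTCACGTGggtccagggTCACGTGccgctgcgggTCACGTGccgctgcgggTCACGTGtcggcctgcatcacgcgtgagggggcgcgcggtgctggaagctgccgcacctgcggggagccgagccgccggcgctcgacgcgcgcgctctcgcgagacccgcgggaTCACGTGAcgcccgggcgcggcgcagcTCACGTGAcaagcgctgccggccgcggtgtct
ATG14: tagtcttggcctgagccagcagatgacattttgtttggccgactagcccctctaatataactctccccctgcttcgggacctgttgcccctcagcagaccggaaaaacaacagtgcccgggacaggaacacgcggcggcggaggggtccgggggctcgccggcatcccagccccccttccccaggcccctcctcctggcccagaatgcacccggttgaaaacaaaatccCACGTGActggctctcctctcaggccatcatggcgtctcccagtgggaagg

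The LAMP1 stretch held CACGTG 6 times and TCACGTGA 2 times, the CTSD and ATG14 stretches held CACGTG 1 time each, and in the WIPI1 stretch these letters were not found. Promoters of 300 bases were matched for 33 of the 38 members. CACGTG stood in 4 of these 33 (12.1%), namely ATG14, ATG3, CTSD and LAMP1, against 1555 of 14210 tested genes with a promoter (10.9%). Among 36 further lysosomal hydrolase and membrane protein genes 10 held it (27.8%). The extension TCACGTG stood in the same number of members, 4 (12.1%), in 9 of the 36 (25.0%) and in 835 of the 14210 (5.88%). TCACGTGA stood in 2 members (6.06%), in 5 of the 36 (13.9%) and in 244 of the 14210 (1.72%). TGATGCAA, letters bound by ATF4 with C/EBP partners, stood in 0 members, 0 of the 36 and 138 of the 14210 (0.971%). A match describes the letters alone.

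Across rows, the correlation between arrays was 0.995 to 0.998 inside a group and 0.913 to 0.923 between a HepG2 and a HepG2S1 array. The labelled liver origin was checked against 10 hepatocyte markers. Their summed linear level was 70100 to 73500 in the HepG2 arrays, and in HepG2S1 it was 820 to 870 with sorafenib, 769 to 850 after withdrawal and 765 to 804 in low oxygen. In the drug group 4 of the 10, ALB, AFP, APOH and FGB, had means below 5.76, the median over the arrays of their lower quartiles. HepG2S1 arrays thus lacked defining hepatocyte markers that HepG2 arrays showed. Summed levels of 5 epithelial markers were 24300 to 25400 in HepG2 and 9570 to 10100 in the drug group, the latter carried mostly by KRT8 and KRT18, which fell by 0.70 and 0.69 while CDH1, EPCAM and KRT19 changed by -4.53, -5.19 and -4.22 on the log2 scale. The sums of 6 mesenchymal markers were 15200 to 15500 and 14900 to 16100, similar totals from opposite changes. VIM, DCN and LUM rose by 6.43, 5.43 and 5.01, ZEB1 by 1.09 and CDH2 by 0.76, while FN1 fell by 3.86; HepG2S1 arrays thus showed VIM, DCN and LUM, of which DCN and LUM had means below 5.76 in HepG2. In every comparison with HepG2, cell line and drug history cannot be told apart, and the part of the marker differences in the differences below was not tested. Of 7 markers of lysosome-rich macrophages and leukocytes, 3 (PTPRC, CD163 and MRC1) had means below 5.76 in every group. CD14, CSF1R, ITGAM and MARCO had means above it, up to 7.82 for CD14 in HepG2. CD14 changed by -0.56 ± 0.11 on the log2 scale in the drug group. The sums over the 7 markers were 649 to 717 in HepG2 and 585 to 674 in HepG2S1. No member had a group mean below 5.76, and 37 of the 38 had a mean over all arrays above 7.02, the 33rd percentile of genes. The exception was MAP1LC3A.

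The first question was how HepG2S1 cells under sorafenib differed from HepG2 cells in these genes. In limma, 15 members were higher and 10 lower in the drug group at an adjusted p under 0.05 and 13 were not called, which is 65.8% called against 57.3% of all genes (30.1% higher and 27.2% lower). The median log2 fold change of the members was 0.00 and that of all genes 0.01, while the median size, sign set aside, was 0.33 and 0.24. MITF, ULK2 and CTSL had the largest rises and CTSB the largest fall. Within several families 1 member was higher and another lower, as in the ATG4 proteases and the cathepsins. Withdrawn HepG2S1 cells, compared with HepG2 so that neither culture held drug, had 14 members higher and 16 lower (78.9% called against 56.6% of all genes, of which 29.6% were higher and 27.0% lower). Both comparisons share the HepG2 arrays and are given side by side.

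**Figure D1:**
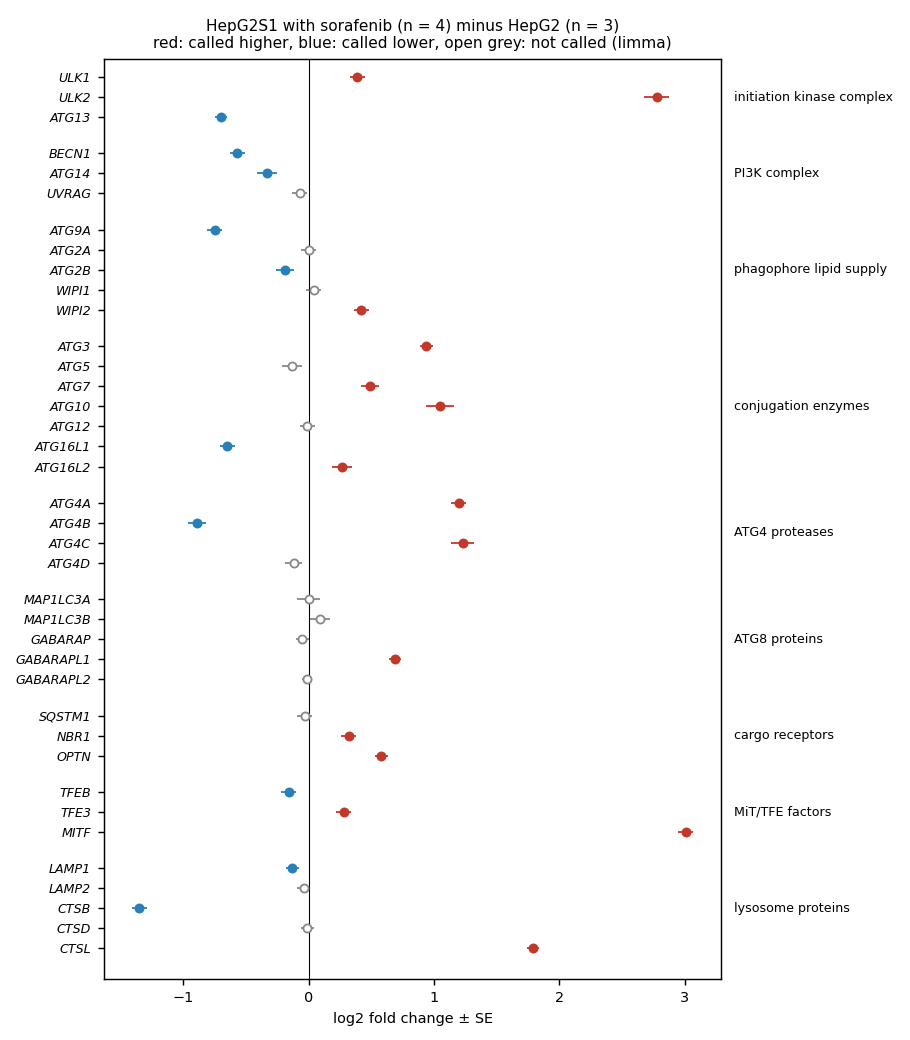
Log2 fold change of the 38 members in HepG2S1 with sorafenib (n = 4) minus HepG2 (n = 3), with SE from the limma fit; members are ordered by role and filled points passed an adjusted p of 0.05. MITF at 3.01 and ULK2 at 2.78 lie farthest to the right and CTSB at -1.35 farthest to the left.

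The second question was what taking sorafenib away did within HepG2S1. Against the drug group, 3 members (MITF, ATG12 and ATG5) were higher and 8 (WIPI1, OPTN, CTSB, CTSD, CTSL, NBR1, ATG2A and LAMP2) lower after withdrawal. The called share was 28.9% against 18.0% of all genes; by direction it was 7.89% higher against 10.1% and 21.1% lower against 7.9%. The count of lower members was 7 or 8 with any 1 array left out except the third withdrawn array, without which it was 5. The lysosome proteins and cargo receptors held 6 of the 8. The initiation kinases, the lipid kinase complex, the ATG4 proteases and the ATG8 proteins together held 0 called of 15 in limma. At an unadjusted p under 0.05, 1 initiation gene (ATG13), 1 lipid kinase gene (UVRAG) and 1 ATG8 gene (GABARAP) were lower there. At that threshold 2440 of the 18377 genes were lower. GABARAP had an adjusted p of 0.0531 and was called lower in 6 of 15 alternatives, UVRAG in 2 and ATG13 in 1, repeated quantile normalization calling all 3.

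The third question was what 2% O2 did under sorafenib. In the low-oxygen group 5 members (ATG5, ULK1, TFE3, ATG9A and MAP1LC3B) were higher and 5 (WIPI1, SQSTM1, CTSL, UVRAG and NBR1) lower than in the drug group at 20% O2. The called share was 26.3% against 15.2% of all genes, or 13.2% higher against 8.99% and 13.2% lower against 6.17%. With scaling to the 75th percentile of each array the split was 4 higher and 7 lower, and over all genes it went from 1653 higher and 1133 lower to 1197 and 2475. Without the second low-oxygen array 3 members were lower. The median size of the members' fold changes, 0.09, was below that of all genes, 0.11. The low-oxygen and withdrawn groups differ in both drug and oxygen, which cannot be told apart, and both were compared with the same sorafenib arrays. Set directly against each other, 8 members were higher and 2 lower in low oxygen (26.3% called against 18.6% of all genes, of which 10.8% were higher and 7.73% lower). With any 1 of the 6 arrays left out 1 member was lower, since the call of SQSTM1 (adjusted p = 0.0469) was lost in each of these fits and in 8 of 14 alternatives in all. Over all genes that comparison had 1992 higher and 1420 lower, or 1679 and 1834 with 75th percentile scaling.

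**Figure D2:**
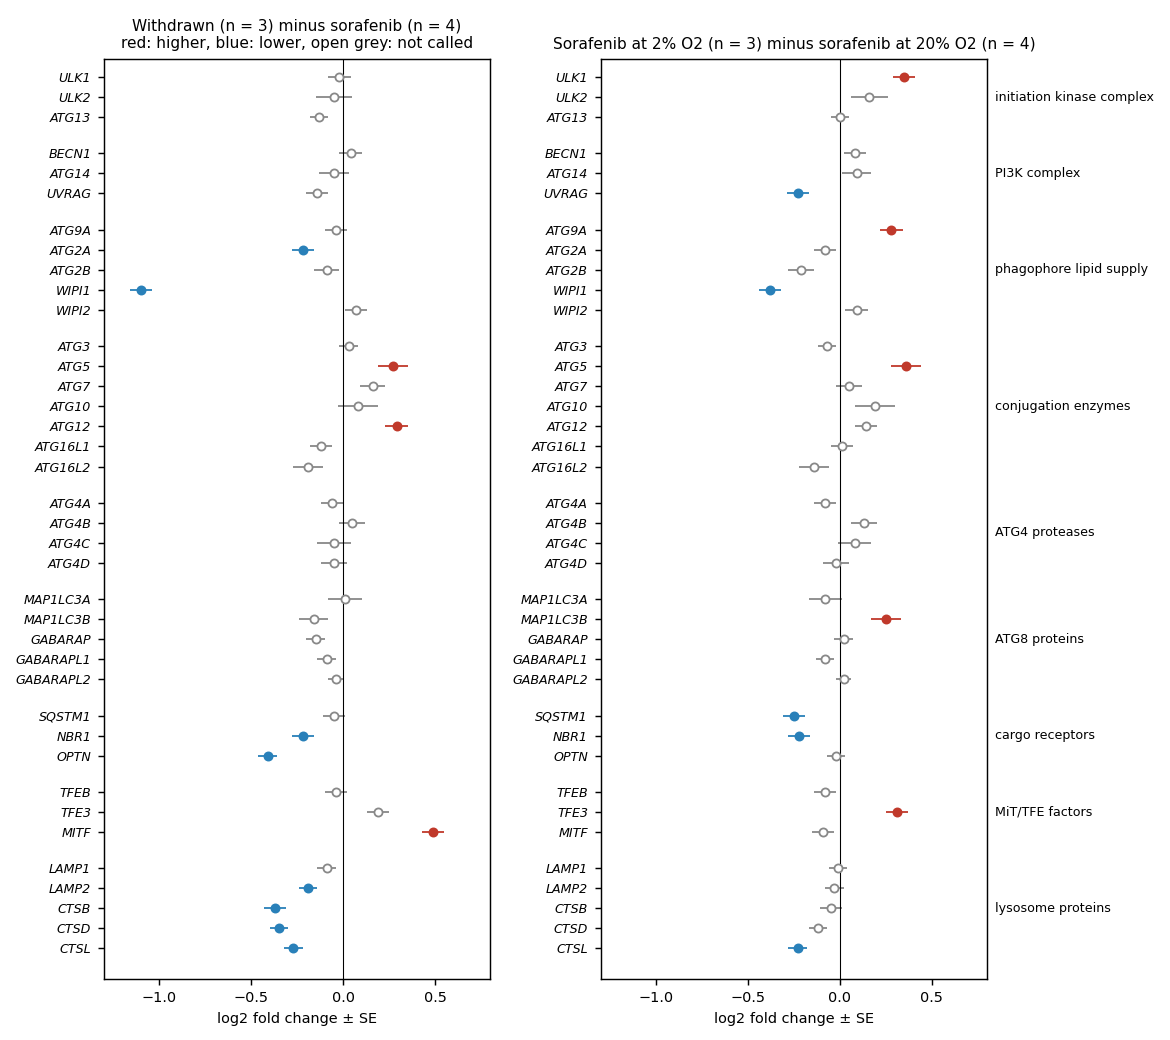
Log2 fold changes of the 38 members within HepG2S1, with SE: withdrawn (n = 3) minus sorafenib (n = 4), and 2% O2 with sorafenib (n = 3) minus sorafenib at 20% O2 (n = 4). WIPI1 has the lowest value in both, -1.10 and -0.38; filled points passed an adjusted p of 0.05.

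ULK1 and ULK2 are the kinases that start autophagy, and ATG13 is the subunit that links them to their scaffold. ULK1 had log2 values of 9.24, 9.39 and 9.30 in HepG2, 9.70, 9.75, 9.62 and 9.71 in the drug group, 9.72, 9.68 and 9.63 after withdrawal and 10.07, 10.09 and 9.96 in low oxygen. The HepG2 arrays were the lowest and the low-oxygen arrays the highest, with no overlap on either side. The difference was 0.39 ± 0.06 (SE, adjusted p = 1.66e-05) for the drug group over HepG2 and 0.35 ± 0.06 (adjusted p = 0.000688) for low oxygen over the drug group. ULK2 stood at 5.76, 5.65 and 6.25 in HepG2 and at 8.74, 8.62, 8.70 and 8.62 in the drug group. Withdrawn arrays gave 8.67, 8.63 and 8.56 and low-oxygen arrays 8.87, 8.86 and 8.77. Its rise over HepG2 was 2.78 ± 0.10 (adjusted p = 2.15e-12), a fold of 6.88 that the low end of the array scale limits, since 2 of the 3 HepG2 values were at or under 5.76. Within HepG2S1 ULK2 passed neither test, with 0.16 ± 0.10 (adjusted p = 0.297) in low oxygen. ATG13 went the other way, at 11.05 ± 0.03 (SD, n = 3) in HepG2 and 10.34 ± 0.09 (SD, n = 4) in the drug group, a difference of -0.70 ± 0.05 (SE).

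Beclin 1, ATG14 and UVRAG belong to the lipid kinase complexes that make the phosphoinositide of the early autophagosome. BECN1 read 9.61, 9.69 and 9.69 in HepG2, 9.13, 8.99, 9.13 and 9.11 with sorafenib, 9.19, 9.18 and 9.03 after withdrawal and 9.19, 9.15 and 9.16 in low oxygen. All 10 HepG2S1 arrays were below the 3 HepG2 arrays, and the 3 HepG2S1 groups lay close together. BECN1 fell by 0.57 ± 0.06 between HepG2 and the drug group (adjusted p = 2.25e-07), and ATG14, the subunit that directs the complex to autophagy, by 0.33 ± 0.08 (adjusted p = 0.00288). UVRAG, the partner in endosomal forms of the complex, passed in low oxygen, at -0.23 ± 0.06 against the drug group (adjusted p = 0.0117); without the second low-oxygen array the adjusted p was 0.0568. In bulk RNA, fewer cells with a transcript and less of it per cell cannot be told apart.

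WIPI1 showed the largest change of any member within HepG2S1. WIPI1 reads the lipid signal on the growing membrane, with WIPI2, and is a known target of TFEB. Its log2 values were 11.17, 11.23 and 11.22 in HepG2 and 11.21, 11.37, 11.17 and 11.25 in the drug group. They were 10.27, 10.09 and 10.11 after withdrawal and 10.96, 10.83 and 10.82 in low oxygen. The HepG2 and drug arrays overlapped, every withdrawn array was below every other array, and the low-oxygen arrays lay in between. WIPI1 fell by 1.10 ± 0.06 at withdrawal (2.14-fold, adjusted p = 2.39e-07), the third lowest log2 fold change among 18377 genes (position 3). In low oxygen it fell by 0.38 ± 0.06 (adjusted p = 0.000858), and it was 0.71 ± 0.07 higher there than after withdrawal (adjusted p = 5.49e-06). The difference between the drug group and HepG2 was 0.04 ± 0.06 (adjusted p = 0.609). Across the alternative settings the withdrawal value ran from -1.15 to -1.06.

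The other lipid supply genes moved less within HepG2S1. WIPI2 was 0.42 ± 0.06 higher in the drug group than in HepG2 (adjusted p = 1.46e-05), and at withdrawal its value was 0.07 ± 0.06 (adjusted p = 0.517). ATG9A, the membrane protein whose vesicles seed the autophagosome, fell by 0.75 ± 0.06 between HepG2 and the drug group and rose by 0.28 ± 0.06 in low oxygen (adjusted p = 0.00594). ATG2A and ATG2B carry lipid between membranes. ATG2A fell by 0.22 ± 0.06 at withdrawal (adjusted p = 0.0147), a call lost without the third withdrawn array (adjusted p = 0.059). ATG2B fell by 0.19 ± 0.07 between HepG2 and the drug group (adjusted p = 0.0268) with arrays that overlapped, and 5 of 14 alternative settings lost the call. Its unused row gave -0.36. In the withdrawn group ATG2B was 0.28 ± 0.07 below HepG2 (adjusted p = 0.00427), a call lost in 0 of 13 alternatives.

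**Figure D3:**
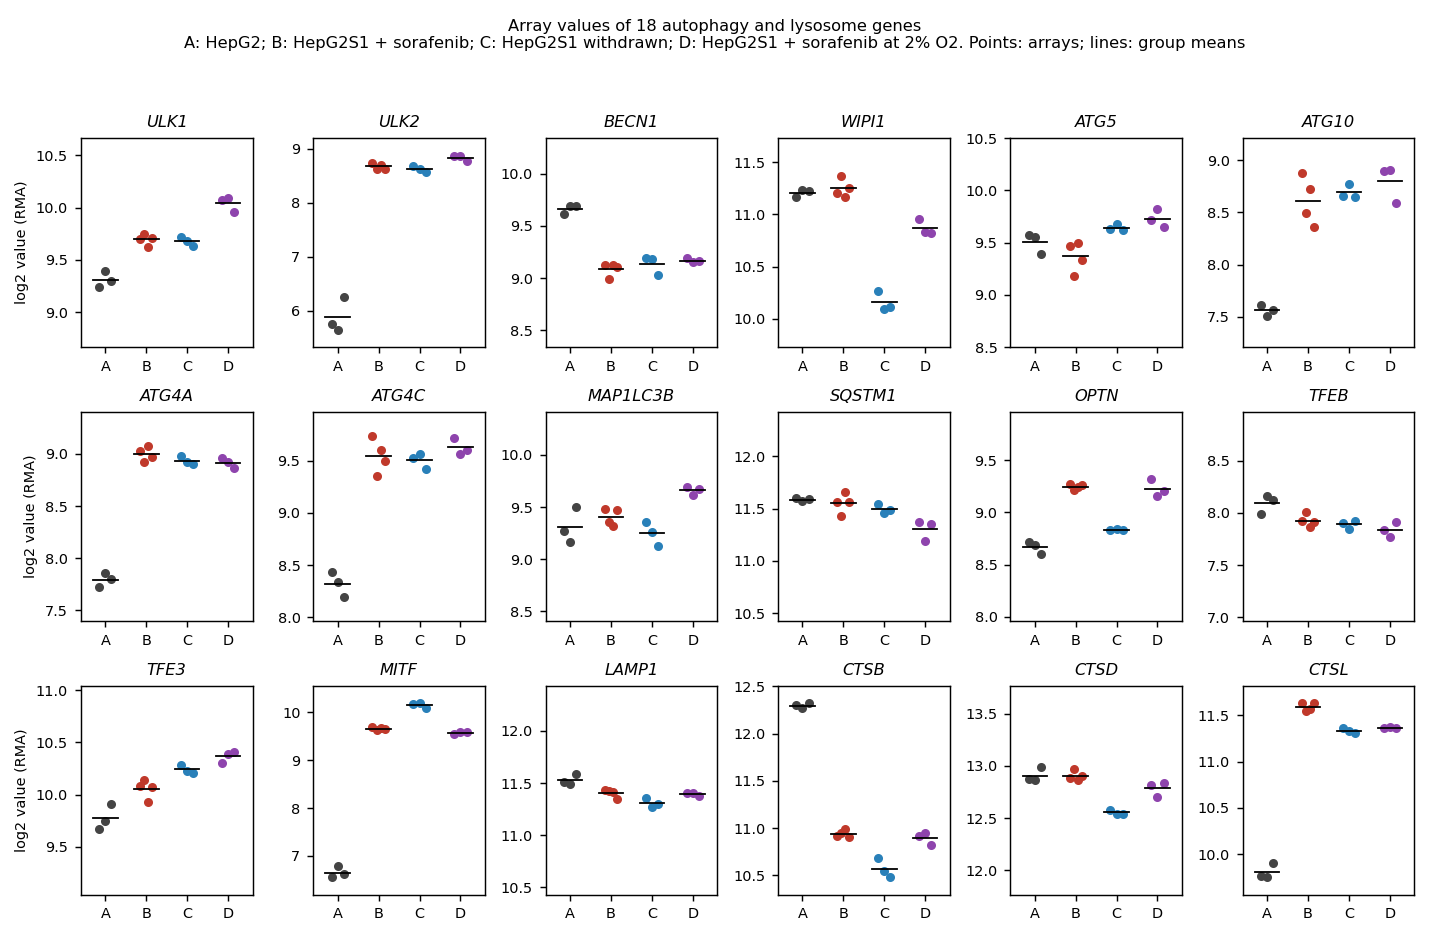
Log2 value of each of the 18 members named array by array, one panel a gene, with the mean of each group as a line: A HepG2, B HepG2S1 with sorafenib, C HepG2S1 withdrawn, D HepG2S1 with sorafenib at 2% O2. WIPI1, OPTN and CTSD are lower in C than in B, ULK1 and MAP1LC3B are highest in D, and ULK2, MITF, CTSB and CTSL separate A from the rest.

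The conjugation enzymes attach ATG12 to ATG5 and ATG8 proteins to lipid. In the drug group 4 of the 7 were higher than in HepG2 and 1 lower (57.1% and 14.3%, against 30.1% and 27.2% of all genes). ATG10, the enzyme that transfers ATG12, read 7.61, 7.51 and 7.56 in HepG2, 8.88, 8.49, 8.72 and 8.36 with sorafenib, 8.66, 8.77 and 8.65 after withdrawal and 8.90, 8.91 and 8.59 in low oxygen. Every HepG2S1 array was above every HepG2 array, by 1.05 ± 0.11 for the drug group (adjusted p = 3.61e-07). ATG3, the enzyme that transfers ATG8 proteins, rose by 0.94 ± 0.05 and ATG7, which activates both systems, by 0.49 ± 0.07. The 2 forms of the scaffold ATG16 differed in sign: ATG16L1 was at -0.65 ± 0.06 (adjusted p = 1.13e-07) and ATG16L2 at 0.27 ± 0.08 (adjusted p = 0.0065).

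ATG5, the core of the conjugation complex, had 9.57, 9.55 and 9.39 in HepG2, 9.47, 9.18, 9.50 and 9.33 with sorafenib, 9.63, 9.68 and 9.62 after withdrawal and 9.72, 9.82 and 9.65 in low oxygen. The drug arrays were below all withdrawn and low-oxygen arrays and overlapped HepG2. ATG5 rose by 0.27 ± 0.08 at withdrawal (adjusted p = 0.0234) and by 0.36 ± 0.08 in low oxygen (adjusted p = 0.00574). The withdrawal call was lost in 5 of the 7 fits that left out an array, those without withdrawn array 1, 2 or 3 or sorafenib array 2 or 4, with adjusted p of 0.0538 to 0.0942. ATG12 rose by 0.29 ± 0.06 at withdrawal (adjusted p = 0.00239), from 8.84 ± 0.06 (SD, n = 4) to 9.13 ± 0.04 (SD, n = 3), and its value in low oxygen was 0.14 ± 0.06 (adjusted p = 0.103).

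The ATG4 proteases trim ATG8 proteins before they are attached and release them afterwards. ATG4A read 7.72, 7.86 and 7.80 in HepG2, 9.03, 8.92, 9.08 and 8.97 with sorafenib, 8.98, 8.92 and 8.90 after withdrawal and 8.96, 8.92 and 8.86 in low oxygen. ATG4C read 8.43, 8.34 and 8.19 in HepG2, 9.74, 9.35, 9.60 and 9.50 with sorafenib, 9.53, 9.56 and 9.42 after withdrawal and 9.72, 9.56 and 9.60 in low oxygen. For both genes all HepG2S1 arrays were above all HepG2 arrays, and the HepG2S1 groups overlapped. ATG4A rose by 1.20 ± 0.06 (adjusted p = 3.09e-11) and ATG4C by 1.23 ± 0.09 (adjusted p = 3.81e-09). ATG4B, the family member with the broadest activity on ATG8 proteins, fell by 0.89 ± 0.07 (adjusted p = 2.64e-08), from 9.19 ± 0.14 (SD, n = 3) to 8.30 ± 0.09 (SD, n = 4). Its unused row gave -0.88. ATG4D had -0.12 ± 0.07 (adjusted p = 0.148). At withdrawal the 4 genes had values from -0.06 to 0.05, none of them called.

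LC3 and GABARAP proteins, the ATG8 family, coat the autophagosome membrane and bind cargo receptors. MAP1LC3B had 9.27, 9.17 and 9.50 in HepG2, 9.48, 9.36, 9.32 and 9.47 with sorafenib, 9.36, 9.26 and 9.13 after withdrawal and 9.69, 9.62 and 9.67 in low oxygen. The low-oxygen arrays were above all others, and the remaining groups overlapped. The rise in low oxygen was 0.25 ± 0.08 over the drug group (adjusted p = 0.0396) and 0.41 ± 0.08 over the withdrawn group (adjusted p = 0.00254). The first of these was lost in 8 of 15 alternatives, namely 75th percentile scaling (adjusted p = 0.0633), repeated quantile normalization (adjusted p = 0.0766) and the fits without low-oxygen array 1, 2 or 3 or sorafenib array 2, 3 or 4, where the adjusted p was 0.0564 to 0.126. GABARAPL1 was the 1 ATG8 gene of 5 called between HepG2 and the drug group (20.0%, against 57.3% of all genes). Its value was 0.69 ± 0.05 (adjusted p = 5.87e-09). In the withdrawn group GABARAPL1 was 0.60 ± 0.05 above HepG2 (adjusted p = 7.76e-08), and GABARAP also passed there, at -0.20 ± 0.05 (adjusted p = 0.00494). GABARAP passed in low oxygen against withdrawal at 0.17 ± 0.05 (adjusted p = 0.0382), which 7 of 14 alternatives lost. MAP1LC3B and GABARAPL1 have near-identical gene copies whose transcripts could share probes, so that their values are uncertain in that respect.

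SQSTM1 (p62), NBR1 and OPTN bind ubiquitin on cargo and ATG8 proteins on the membrane. SQSTM1 read 11.60, 11.57 and 11.59 in HepG2, 11.56, 11.43, 11.66 and 11.56 with sorafenib, 11.54, 11.46 and 11.49 after withdrawal and 11.37, 11.19 and 11.35 in low oxygen. The low-oxygen arrays were the lowest and did not overlap the rest. SQSTM1 fell by 0.25 ± 0.06 in low oxygen against the drug group (adjusted p = 0.0128, or 0.0791 without the second low-oxygen array). OPTN, which also serves the removal of damaged mitochondria, read 8.72, 8.69 and 8.60 in HepG2, 9.27, 9.21, 9.24 and 9.26 with sorafenib, 8.83, 8.84 and 8.83 after withdrawal and 9.32, 9.16 and 9.20 in low oxygen. Both groups with drug were above both groups without it, and none of the 7 drug arrays overlapped the 6 others. OPTN was 0.58 ± 0.05 higher in the drug group than in HepG2 (adjusted p = 9.18e-08), fell by 0.41 ± 0.05 at withdrawal (adjusted p = 8.72e-05) and had -0.02 ± 0.05 in low oxygen (adjusted p = 0.799). NBR1 was 0.32 ± 0.06 higher in the drug group than in HepG2. It fell by 0.22 ± 0.06 at withdrawal and by 0.22 ± 0.06 in low oxygen (adjusted p = 0.0153 and 0.0203). Without the third withdrawn array the first of these had an adjusted p of 0.0751, and the second was lost without the third low-oxygen or the fourth sorafenib array, with up to 0.0788.

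The MiT/TFE factors switch on lysosome and autophagy genes and are controlled mostly by their location in the cell. MITF, better known as the master factor of pigment cells, read 6.55, 6.78 and 6.62 in HepG2, 9.69, 9.63, 9.67 and 9.66 with sorafenib, 10.18, 10.19 and 10.10 after withdrawal and 9.54, 9.59 and 9.59 in low oxygen. No group overlapped another. MITF rose by 3.01 ± 0.06 between HepG2 and the drug group (8.06-fold, adjusted p = 5.02e-16) and by a further 0.49 ± 0.06 at withdrawal (adjusted p = 4.27e-05). In low oxygen it had -0.09 ± 0.06 against the drug group (adjusted p = 0.29). TFE3 read 9.67, 9.75 and 9.91 in HepG2, 10.08, 10.14, 9.93 and 10.07 with sorafenib, 10.28, 10.23 and 10.21 after withdrawal and 10.30, 10.39 and 10.41 in low oxygen. Its groups followed each other in that order with no overlap. TFE3 was 0.28 ± 0.06 higher in the drug group than in HepG2 and rose by 0.31 ± 0.06 in low oxygen (adjusted p = 0.00147 and 0.00469), while the withdrawal value of 0.19 ± 0.06 was not called (adjusted p = 0.0618; 6 of 15 alternatives called it).

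TFEB, the factor of this family most studied in starvation, read 7.99, 8.16 and 8.12 in HepG2, 7.92, 8.01, 7.86 and 7.91 with sorafenib, 7.90, 7.85 and 7.92 after withdrawal and 7.84, 7.77 and 7.91 in low oxygen. The HepG2 arrays were the highest but overlapped the drug arrays. TFEB fell by 0.16 ± 0.06 between HepG2 and the drug group (adjusted p = 0.0233). The call was lost with these groups fitted alone and without HepG2 array 2 or 3 or sorafenib array 3 or 4, with adjusted p of up to 0.104. Within HepG2S1 its values were -0.04 ± 0.06 at withdrawal and -0.08 ± 0.06 in low oxygen, neither called. At withdrawal 3 members were higher, MITF among them, and 8 were lower, among them WIPI1, CTSD and CTSB. The shares were 7.89% higher and 21.1% lower, against 10.1% and 7.9% of all genes. Whether MITF had a part in the other changes was not tested.

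LAMP1 and LAMP2 are the main glycoproteins of the lysosomal membrane, and cathepsins B, D and L are proteases of its lumen. CTSB read 12.30, 12.27 and 12.32 in HepG2, 10.92, 10.95, 10.99 and 10.91 with sorafenib, 10.69, 10.55 and 10.48 after withdrawal and 10.92, 10.95 and 10.82 in low oxygen. HepG2 arrays stood far above the rest, and withdrawn arrays below all others. CTSB fell by 1.35 ± 0.06 between HepG2 and the drug group (adjusted p = 8.33e-12) and by a further 0.37 ± 0.06 at withdrawal (adjusted p = 0.000369). CTSL went the opposite way between the lines, with 9.76, 9.75 and 9.90 in HepG2, 11.63, 11.55, 11.57 and 11.63 with sorafenib, 11.36, 11.33 and 11.31 after withdrawal and 11.36, 11.37 and 11.36 in low oxygen. It rose by 1.79 ± 0.05 over HepG2 (adjusted p = 6.17e-14), then fell by 0.27 ± 0.05 at withdrawal and by 0.23 ± 0.05 in low oxygen (adjusted p = 0.00182 and 0.00605).

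CTSD read 12.87, 12.86 and 12.99 in HepG2, 12.88, 12.97, 12.86 and 12.90 with sorafenib, 12.58, 12.54 and 12.54 after withdrawal and 12.82, 12.70 and 12.84 in low oxygen. HepG2 and drug arrays overlapped and the withdrawn arrays were the lowest. CTSD fell by 0.35 ± 0.05 at withdrawal (adjusted p = 0.000432) and had -0.01 ± 0.05 between HepG2 and the drug group (adjusted p = 0.95). LAMP1 read 11.51, 11.49 and 11.59 in HepG2, 11.43, 11.42, 11.41 and 11.35 with sorafenib, 11.36, 11.27 and 11.30 after withdrawal and 11.40, 11.40 and 11.38 in low oxygen. Its fall of 0.13 ± 0.05 between HepG2 and the drug group passed (adjusted p = 0.0282). The call was lost without HepG2 array 3 (adjusted p = 0.111) or sorafenib array 4 (0.0801), with array weights (0.0504) and with these groups fitted alone (0.0749). At withdrawal LAMP1 had -0.09 ± 0.05 (adjusted p = 0.237). LAMP2 fell by 0.19 ± 0.05 there (adjusted p = 0.0266), and the adjusted p reached 0.106 in the 6 of 15 alternatives that lost the call, those with both groups alone or without sorafenib array 1, 3 or 4 or withdrawn array 1 or 3.

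The lower cathepsins after withdrawal were set beside 47 further lysosomal genes, taken from lists of hydrolases and of membrane and transport proteins. With the 5 members that made 52 lysosomal genes, of which 27 fell and 3 rose at withdrawal (51.9% lower, against 7.9% of all genes). The 27 include 4 of the 5 members, so the lists without members are also given. Their median log2 fold change was -0.20, against -0.02 for all genes. Among 30 hydrolases 16 fell and 3 rose (53.3% and 10.0%, against 7.9% and 10.1% of all genes), and 13 to 16 fell when each array was left out. CTSH, a cathepsin, fell by 0.55 ± 0.07 and IDS, which degrades heparan and dermatan sulfate, by 0.47 ± 0.05, while CTSK rose by 0.47 ± 0.13 and GLA by 0.25 ± 0.06. Among 17 membrane and transport proteins 7 fell (41.2%), and 6 to 7 did with an array left out. The sialic acid exporter SLC17A5 fell by 0.85 ± 0.05 and CD68, a glycoprotein abundant in macrophages, by 0.55 ± 0.06. Sums of macrophage and leukocyte markers were 614 to 674 with sorafenib and 593 to 637 after withdrawal. PTPRC, CD163 and MRC1 were below 5.76 in every group, and CD14, CSF1R, ITGAM and MARCO above it. Summed mesenchymal markers were 14900 to 16100 and 17500 to 17900, and epithelial ones 9570 to 10100 and 11000 to 11100; the part of these shifts in the lysosomal values was not tested.

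In low oxygen 4 of the same 52 genes rose and 6 fell (7.69% and 11.5%, against 8.99% and 6.17% of all genes), with a median of -0.02, beside -0.03 for all genes. CTSO rose by 0.53 ± 0.09 and ACP2, an acid phosphatase, by 0.27 ± 0.08, whereas LGMN, an asparaginyl protease, fell by 0.29 ± 0.05 and NPC1, the cholesterol exporter, by 0.34 ± 0.04. The hydrolases split into 3 higher and 3 lower, or 2 and 7 with 75th percentile scaling, and the membrane proteins into 1 and 2, or 0 and 3. Over all genes that scaling gave 1197 higher and 2475 lower. With 1 array left out 1 to 3 hydrolases were lower, 1 without the first or the second low-oxygen array, and the membrane proteins had 0 to 1 higher and 1 to 2 lower. Against the withdrawn group, 20 of the 52 were higher and 3 lower in low oxygen (38.5% and 5.77%, against 10.8% and 7.73% of all genes), with a median of 0.16. Between HepG2 and the drug group 18 of the 52 rose and 26 fell (34.6% and 50.0%, against 30.1% and 27.2% of all genes). CTSH had the largest fall, -3.48 ± 0.07, and ARSB followed at -2.34 ± 0.06, while CTSZ rose by 2.27 ± 0.12 and GUSB by 1.44 ± 0.05.

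**Figure D4:**
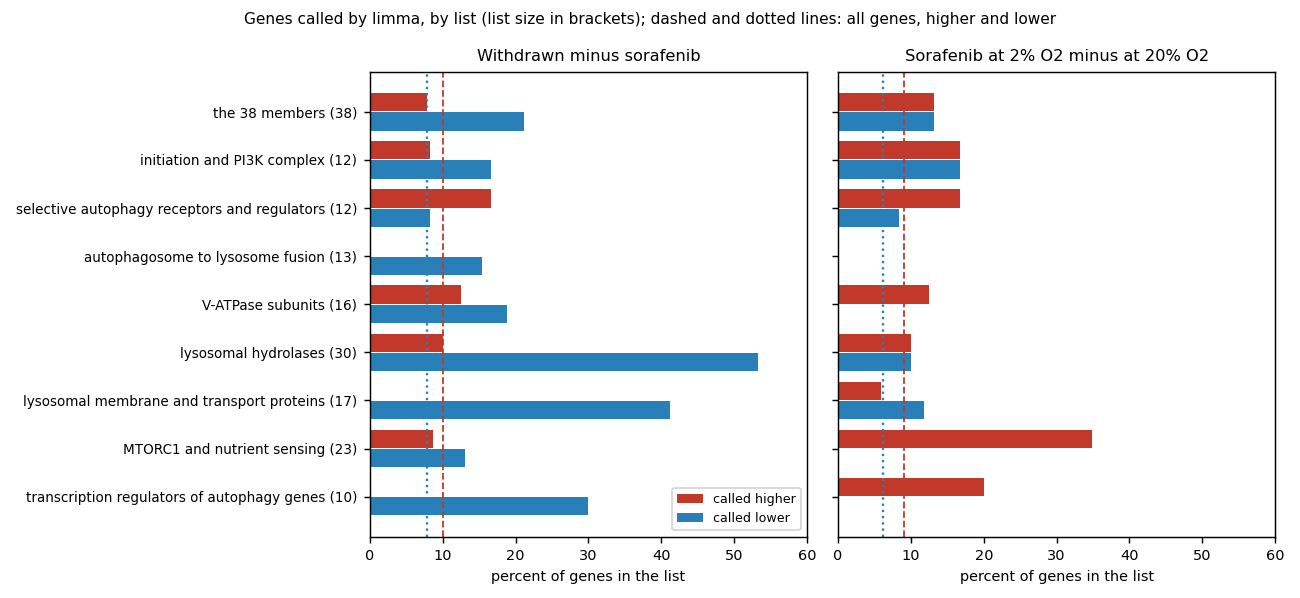
Percent of the genes of each list that were called higher or lower in limma, for withdrawn minus sorafenib and for 2% O2 minus 20% O2 under sorafenib; dashed and dotted lines mark the share over all genes tested. At withdrawal 53.3% of the 30 further hydrolases and 41.2% of the 17 further membrane proteins were lower.

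Of 16 V-ATPase subunits, which acidify the lysosome, 2 rose and 3 fell at withdrawal (12.5% and 18.8%, against 10.1% and 7.9% of all genes; median 0.01), or 1 and 3 with 75th percentile scaling. With 1 array left out 0 to 2 rose and 1 to 3 fell, 1 without the second withdrawn array. ATP6V1C1 rose by 0.28 ± 0.08 and ATP6AP1 fell by 0.24 ± 0.05. In low oxygen 2 of the 16 rose, ATP6V1C1 and ATP6V0D1, where 8.99% of all genes did. With 75th percentile scaling 0 rose and 1 fell (over all genes 1197 and 2475), and with any 1 array left out 0 to 1 rose. Of 13 genes for fusion of autophagosomes with lysosomes, 2 fell at withdrawal, VPS41 and VPS39 (15.4%, against 7.9% of all genes), and with 1 array left out 0 to 2 did, 0 without the third withdrawn array. Of the 13, 0 were called in low oxygen by limma, against 15.2% of all genes. At an unadjusted p under 0.05, 2 of the 13 were higher and 2 lower there, beside 2724 and 3043 of the 18377 genes. With 75th percentile scaling 2 of them fell in low oxygen, where 2475 of the 18377 genes did.

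Of 12 other cargo receptors and regulators, 2 rose and 1 fell in low oxygen, and 2 rose and 1 fell at withdrawal (16.7% higher and 8.33% lower in each). Over all genes 8.99% were higher and 6.17% lower in low oxygen, and 10.1% and 7.9% at withdrawal. BNIP3, a mitophagy receptor and known target of hypoxia-inducible factors, rose by 1.25 ± 0.05 (adjusted p = 1.23e-09), from 11.66 ± 0.05 (SD, n = 4) to 12.91 ± 0.04 (SD, n = 3). BNIP3L, its relative, rose by 0.90 ± 0.06, and RETREG1, a receptor for the endoplasmic reticulum, fell by 0.40 ± 0.09. At withdrawal BNIP3 rose by 0.40 ± 0.05, NCOA4, the ferritin receptor, by 0.19 ± 0.06, and CALCOCO2 (NDP52) fell by 0.48 ± 0.06; with 75th percentile scaling 1 of the 12 rose and 1 fell there, and 1 to 2 rose with 1 array left out.

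The further initiation and lipid kinase genes numbered 12. In low oxygen WDR45B, a WIPI relative, rose by 0.73 ± 0.07 and PIK3C3, the lipid kinase itself, by 0.47 ± 0.07, while WDR45 fell by 0.22 ± 0.07 and VMP1 by 0.17 ± 0.05 (16.7% in each direction, against 8.99% of all genes higher and 6.17% lower). With any 1 array left out 0 to 1 of the 12 fell in low oxygen. At withdrawal 1 rose and 2 fell (8.33% and 16.7%, against 10.1% and 7.9% of all genes). WDR45B at 0.24 ± 0.07 and TRAPPC11 at -0.29 ± 0.07 were among these. With 75th percentile scaling 0 rose and 2 fell, and with 1 array left out 0 to 1 rose and 0 to 2 fell. Between HepG2 and the drug group 5 rose and 4 fell (41.7% and 33.3%, against 30.1% and 27.2% of all genes). With that scaling 4 rose and 5 fell. PIK3R4, the kinase's regulatory subunit, rose by 0.91 ± 0.06, and TMEM41B, a lipid scramblase, fell by 0.66 ± 0.07. The lowest log2 fold change among the 12 was -1.0.

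Of 23 genes of MTORC1 and nutrient sensing, 8 rose and 0 fell in low oxygen (34.8% higher, against 8.99% of all genes). At an unadjusted p under 0.05, 10 rose and 1 fell, beside 2724 and 3043 of the 18377 genes. Scaling to the 75th percentile gave 8 and 1, beside 1197 and 2475 over all genes. DDIT4 (REDD1), an inhibitor of MTORC1 induced by hypoxia, rose by 0.62 ± 0.06 and FNIP2, a folliculin partner, by 0.57 ± 0.06. At withdrawal 2 of the 23 rose and 3 fell (8.7% and 13.0%, against 10.1% and 7.9% of all genes). With 75th percentile scaling the numbers were 1 and 4, and 0 to 2 rose with 1 array left out. DEPTOR, an inhibitor bound to the kinase, was at -0.47 ± 0.09. RRAGD, a GTPase that recruits MTORC1 and MiT/TFE factors to lysosomes, was at -0.32 ± 0.06. Against HepG2 the drug group had 10 higher and 11 lower (43.5% and 47.8%, against 30.1% and 27.2% of all genes). These were led by DDIT4 at 1.56 ± 0.06 and SESN3, a sestrin, at -1.55 ± 0.08.

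Among 10 other transcription regulators of autophagy genes 3 fell and 0 rose at withdrawal, where 7.9% of all genes were lower and 10.1% higher. At an unadjusted p under 0.05, 4 fell and 0 rose, beside 2440 and 2826 of the 18377 genes. DDIT3 (CHOP), the stress factor downstream of ATF4, fell by 0.77 ± 0.07 (adjusted p = 6.35e-06) and ATF4 by 0.69 ± 0.09 (adjusted p = 9.74e-05). DDIT3 had stood at 8.58 ± 0.07 (SD, n = 3) in HepG2, 10.61 ± 0.12 (SD, n = 4) with sorafenib and 9.84 ± 0.05 (SD, n = 3) after withdrawal, with no overlap. In low oxygen 2 of the 10 rose (20.0%, against 8.99% of all genes). They were DDIT3 at 0.24 ± 0.07 and ZKSCAN3, a repressor of autophagy genes, at 0.26 ± 0.07. With 75th percentile scaling 1 rose. Leaving out 1 array left 0 to 2, with 0 without the second low-oxygen array. Between HepG2 and the drug group 7 of the 10 rose and 1 fell, where 30.1% and 27.2% of all genes did. DDIT3 rose by 2.03 ± 0.07 and HIF1A by 0.46 ± 0.07, and FOXO1 fell by 0.35 ± 0.08.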

How the data were processed

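RNA of 13 flasks was hybridised to Affymetrix HuGene arrays. The authors deposited log2 values. Per the submitters' processing notes these came from RMA, whose version is not given in the sources used here. RMA pulls low signals together, which shrinks fold changes near the floor, and no detection calls or batches were given. The number of arrays limits the precision.

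Of 28926 rows, 19310 had 1 symbol, 1752 several and 7864 none; symbols of 19279 rows were updated through Entrez IDs with RefSeq (GRCh38.p14). For 685 genes with several rows the row of highest mean was kept, which left 18377 genes. All were fitted in limma 3.58.1 (R 4.3.3; lmFit and eBayes, 1 fit over the 4 groups), with Benjamini-Hochberg adjustment in each of 5 comparisons and a call at an adjusted p under 0.05. Fold changes are the first group minus the second, with SE from the fit, and the fit was tested on simulated data. Members, gene lists and markers were chosen with earlier results of these data known.

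By rule, array values are given for members called at 1 or more (log2) between drug group and HepG2, for those called at 0.3 or more within HepG2S1 against the drug group, and for MAP1LC3B, SQSTM1, BECN1, TFEB and LAMP1. From each list, up to 2 called rises and 2 called falls per comparison could be named. Lists were described by counts, without a set test. Further markers were those of endothelial cells, whose sums were 320 to 373 in HepG2 and 234 to 281 in HepG2S1. Alternatives were robust moderation with a trend, fits of only the compared groups or only HepG2S1, array weights, a filter at the 33rd percentile, quantile normalization once more, 75th percentile scaling, averaging a gene's rows and leaving out each array. Array numbers follow accession order and only name an array. A comparison of protein sequences was not analysed here. Figures used matplotlib 3.10.9.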

Additional observations from a re-analysis of the deposited data

Results flagged for a closer look

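BECN1 in HepG2S1 with sorafenib had 1 array far from the others: the lowest value was 8.99 on the log2 scale, and the other arrays lay between 9.11 and 9.13. The gap to the nearest array was 0.853 of the range of the group. In the only group with 4 arrays 38 member genes were looked at in this way and 1 stood out, while chance alone gives about 1 in 20. All 4 values were below those of HepG2, and the fall against HepG2 was between 0.54 and 0.60 (log2 differences of -0.54 and -0.60) with each array left out.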

How the results depend on the processing

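Of the log2 fold changes of named members under other settings, 661 kept direction and side of the threshold, 9 lost a call, 10 gained one and 4 changed sign; with an array left out the numbers were 550, 27, 2 and 15. With array weights, withdrawal against the drug group had 2861 genes higher and 2370 lower and 5 members higher, low oxygen against the drug group had 2227 genes lower, and low oxygen against withdrawal had 2453 lower. With 75th percentile scaling 2475 genes were lower in low oxygen against the drug group. With only the compared groups, or only the HepG2S1 arrays, in the fit, 1 member was lower in low oxygen against withdrawal. The cause was not tested. Values near 0 changed sign: between HepG2 and the drug group WIPI1 was -0.01 with 75th percentile scaling and SQSTM1 0.0011 with array weights, which also gave ULK1 0.0034 at withdrawal and LAMP1 0.0041 in low oxygen. With an array left out, low oxygen against the drug group had 1077 to 1763 genes higher (lowest without the second low-oxygen array), 521 to 1378 lower (521 and 582 without the second or the first low-oxygen array, 698 without the fourth sorafenib array) and 3 to 6 members lower; withdrawal had 5 to 8 members lower, and low oxygen against withdrawal had 1 lower without any 1 array. The log2 fold changes that crossed 0 ran from -0.07 to 0.01 for SQSTM1 and -0.03 to 0.04 for CTSD (drug group minus HepG2), -0.14 to 0.03 for MAP1LC3B (withdrawn minus HepG2), -0.04 to 0.0033 for ULK1, -0.00051 to 0.17 for ATG10 and -0.12 to 0.01 for ATG4C (withdrawal), -0.07 to 0.01 for OPTN and -0.02 to 0.0029 for LAMP1 (low oxygen), and -0.02 to 0.06 for BECN1 and -0.05 to 0.01 for ATG4A (low oxygen minus withdrawal). No setting brought a sign change to a called value of a named member. No paired analysis was possible because the labels give no replicate numbers shared between groups. They give a running number in each title and an accession order.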
